A study of Mus musculus with 20 samples.

Results

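Aortic microRNAs (miRNAs) of mice kept on chow were compared between week 18 and week 6, with 3 arrays at each week. These 6 arrays were those titled as chow at either week, out of 20 arrays in the series. All mice were male, and the labels give the double knockout as Apobtm2Sgy/Ldltm1Her, which every group carries, so there was no wild-type control. Apobtm2Sgy is an engineered allele of the apolipoprotein B gene, and the second name is read here as the null allele of the low-density lipoprotein receptor, without which cholesterol-rich particles are cleared poorly and atherosclerosis develops. The tissue was the ascending aorta including its lesion. The treatment protocol counts the weeks on the diets, while the label for age holds the same numbers, so the age of the mice is not certain. The remaining arrays were 2 from week 0 on chow, 3 from week 30 on chow and 3 each from weeks 6, 18 and 30 on a high fat diet. The labels do not say that replicates come from separate animals or whether animals were pooled, and the spread behind each p-value may therefore be partly technical.

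A miRNA is cut from a hairpin precursor, from either the 5p or the 3p arm, and lowers the output of messenger RNAs that pair with its seed, bases 2 to 8. miRNAs that share a seed form a family, and families are often transcribed together from clusters. The miR-17 cluster, which runs from miR-17 to miR-92a, and its paralogs are known for promoting proliferation of blood and other cells, miR-181 for setting the sensitivity of T cells, miR-142 for being made almost solely in blood-derived cells, and miR-128 for its abundance in brain.

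The sequences of the families that the comparison turned on are given first, from RefSeq with assembly GRCm38.p6, written 5′ to 3′ with the seed in capitals. They are shown so that members with a shared seed can be compared outside it, where some are close (miR-17-5p and miR-20a-5p) and others are not (miR-25-3p and miR-363-3p). Whether a probe also binds a close relative was not tested. The first 2 sets are the miR-181 family, with the opposite arm miR-181a-1-3p, and the miR-17, miR-18, miR-19 and miR-25 families of the miR-17 cluster and its paralogs.
miR-181a-5p: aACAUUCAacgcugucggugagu
miR-181b-5p: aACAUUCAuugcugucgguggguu
miR-181c-5p: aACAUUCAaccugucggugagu
miR-181d-5p: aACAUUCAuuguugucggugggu
miR-181a-1-3p: aCCAUCGAccguugauuguacc
miR-17-5p: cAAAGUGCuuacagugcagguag
miR-20a-5p: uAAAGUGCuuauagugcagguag
miR-20b-5p: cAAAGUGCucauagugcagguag
miR-93-5p: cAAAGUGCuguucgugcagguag
miR-106b-5p: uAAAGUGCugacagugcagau
miR-18a-5p: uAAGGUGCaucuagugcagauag
miR-18b-5p: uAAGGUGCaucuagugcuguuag
miR-19a-3p: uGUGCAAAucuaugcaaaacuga
miR-19b-3p: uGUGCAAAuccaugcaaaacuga
miR-25-3p: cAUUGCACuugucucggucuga
miR-92a-3p: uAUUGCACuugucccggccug
miR-363-3p: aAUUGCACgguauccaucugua
The next set holds single miRNAs with large differences, namely miR-128-3p, both arms of miR-142a and miR-466j. The miR-130 and miR-301 family follows, in which members with 1 seed behaved differently.
miR-128-3p: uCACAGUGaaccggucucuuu
miR-142a-3p: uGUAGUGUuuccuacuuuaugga
miR-142a-5p: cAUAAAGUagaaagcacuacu
miR-466j: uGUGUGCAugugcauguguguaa
miR-130b-3p: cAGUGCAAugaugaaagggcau
miR-130a-3p: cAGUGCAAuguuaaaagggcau
miR-301a-3p: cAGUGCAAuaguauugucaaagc

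Before the results, the arrays themselves differed. Values are scaled log2 intensities, in which a difference of 1 is a change by a factor of 2, and the lowest value that could be assigned, the floor, was 3.09. Between 489 and 595 miRNAs were detected on the week 6 chow arrays, against 316, 492 and 610 on week 18 replicates 1, 2 and 3. Week 18 replicate 1 stood apart. Its 75th percentile of intensity before scaling was 183 against 448 to 1214 on the other 5 arrays, and over the 192 miRNAs detected on all 20 arrays its log2 differences from the other week 18 chow arrays had SDs of 1.73 and 1.53. Week 6 replicates 1 and 2 were nearly identical, with an SD of 0.28 between them against 0.66 and 0.72 to replicate 3. All week 6 arrays lay on slide 1 and all week 18 chow arrays on slide 2, so that slide and week cannot be told apart in the comparison. For each of the 3 week 18 chow arrays the position on the slide in the description differed from that in its file, and by the description's position replicate 1 would be a high fat array. Of the miRNAs of the aortic wall, 3 of 3 tested smooth muscle ones and 2 of 4 tested endothelial ones were detected on all 6 arrays. Among those detected on all 6 were smooth muscle miR-145a-5p and endothelial miR-126a-3p.

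At week 18, 100 of 609 tested miRNAs were lower than at week 6 and 0 were higher (16.4% and 0% of those tested, limma with Benjamini-Hochberg adjustment at 0.05). At an unadjusted p under 0.05 the counts were 175 lower and 8 higher. The 100 log2 differences ranged from 1.21 to 5.06 in size with a median of -2.32, while the median over all tested miRNAs was -0.16, with 330 negative and 279 positive. For all 100 the 3 week 18 arrays lay below the 3 week 6 arrays, a separation that 203 of the 609 miRNAs showed in that direction (33.3%) and 12 in the other (1.97%). The median of the 100 was 6.45, 6.37 and 5.90 on the week 6 arrays, and at the floor, 4.46 and 3.72 on week 18 replicates 1, 2 and 3.

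All 100 were detected on every week 6 array, but only 7 were detected on every week 18 array, 78 on some and 15 on none. Week 18 replicate 1 detected 7 of them, replicate 2 detected 82 and replicate 3 detected 70. Of the 248 tested miRNAs that were detected on all 6 arrays, those 7 were the ones that passed (2.82%). They were miR-181a-5p, miR-25-3p, miR-93-5p, miR-106b-5p, miR-19b-3p, miR-338-5p and miR-500-3p, and 5 of them belong to the miR-181 and miR-17 cluster groups. The number lower was 54 without week 18 replicate 1, 48 or 58 without week 6 replicate 1 or 2, and 10 when the array that stood apart was left out and the nearly identical pair was averaged. It was 124, with 29 higher, without week 18 replicate 2. All 100 differences stayed negative in each setting in which they were tested. A miRNA was tested if all arrays of any 1 group detected it, so that some could enter through chow week 6 alone. Such miRNAs come out lower more readily, and their number was not counted. Of the 100, 62 were also detected on every chow week 30 array. With all 1881 miRNAs tested, 93 were lower, 69 of the 100 among them, and 1 was higher.

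**Figure D1:**
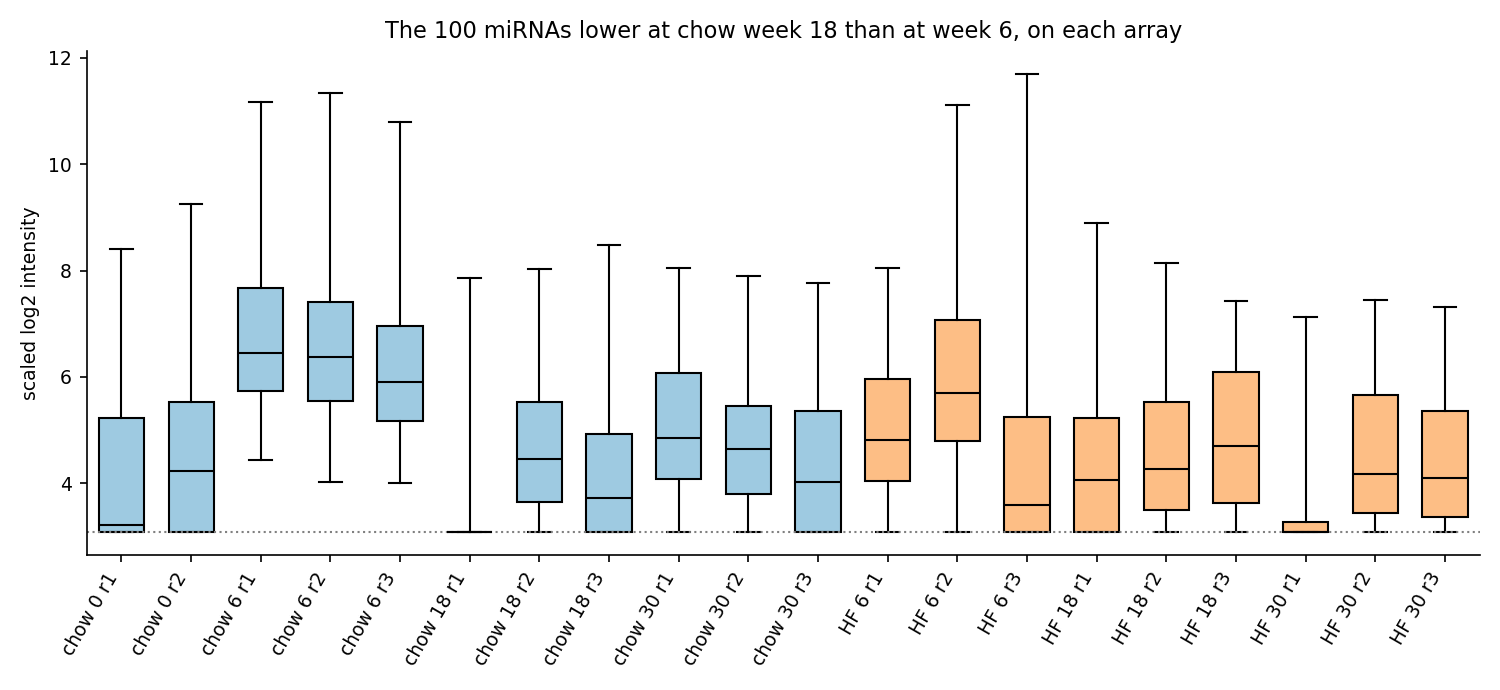
Box plots of the 100 miRNAs that were lower at chow week 18, on each of the 20 arrays, as scaled log2 intensity (line, median; box, middle 50% of the miRNAs; whiskers, lowest and highest; blue, chow; orange, high fat; dotted line, floor of 3.09). The 3 chow week 6 arrays have the highest medians, 5.90 to 6.45, and on chow week 18 replicate 1 (chow 18 r1) 76 of the 100 lie at the floor.

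miR-128-3p had the largest difference. It stood at 9.62, 9.79 and 9.06 on the week 6 arrays and at 3.52, 4.53 and 5.24 on the week 18 arrays. The groups lay far apart, and replicate 1 was the lowest of week 18. The means were 9.49 ± 0.38 and 4.43 ± 0.87 (SD, n = 3 each), a log2 difference of -5.06 (SE 0.52, limma adjusted p = 7.20e-06), and it was -4.60 without week 18 replicate 1. RefSeq places its genes Mir128-1 inside R3hdm1 and Mir128-2 inside Arpp21, and its probes match chr1:130098982-130099001 and chr9:112021188-112021207 of build mm9. It was the member of a list of 7 tested cholesterol regulators that passed. The other 6 did not, among them miR-144-3p (-1.90, adjusted p = 0.289) and miR-27b-3p (0.42, adjusted p = 0.528), which target cholesterol transporters or lipid genes, and the median of the list was -0.56.

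All 5 tested members of the miR-181 family were lower, with a median of -3.38. miR-181b-5p measured 8.76, 8.68 and 8.09 at week 6 and 5.0, 4.42 and 5.0 at week 18. Here replicate 1 of week 18 lay level with replicate 3. The difference was -3.70 (SE 0.41, adjusted p = 1.29e-05). For miR-181a-5p the week 6 values were 10.11, 10.05 and 9.44 and the week 18 values 7.86, 5.50 and 6.11. In contrast to miR-128-3p, it was highest at week 18 on replicate 1, and its difference grew from -3.38 (SE 0.71, adjusted p = 0.00398) to -4.06 when that array was left out. miR-181d-5p differed by -2.55 (SE 0.39) and miR-181c-5p by -2.37 (SE 0.50).

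The opposite arm miR-181a-1-3p read 6.93, 7.05 and 6.29 at week 6 and lay at the floor on all 3 week 18 arrays. No week 18 array measured it well above background, which makes it at least 5.68-fold lower (adjusted p = 2.15e-06). Such a bound sets the bright mean against the lowest signal that was detected on each dim array. The adjusted p beside a bound, here and below, is not for the bound. It is for the difference with the dim arrays set to the floor, where they add no spread. All 5 members also passed without week 18 replicate 1. The cluster of Mir181a-1 and Mir181b-1 on chromosome 1 holds miR-181a-5p, miR-181b-5p and miR-181a-1-3p, the last at chr1:139863090-139863106 in mm9. The second copy of miR-181a-5p and miR-181b-5p lies on chromosome 2 within Nr6a1, which encodes a nuclear receptor, and the array cannot tell the copies apart.

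**Figure D2:**
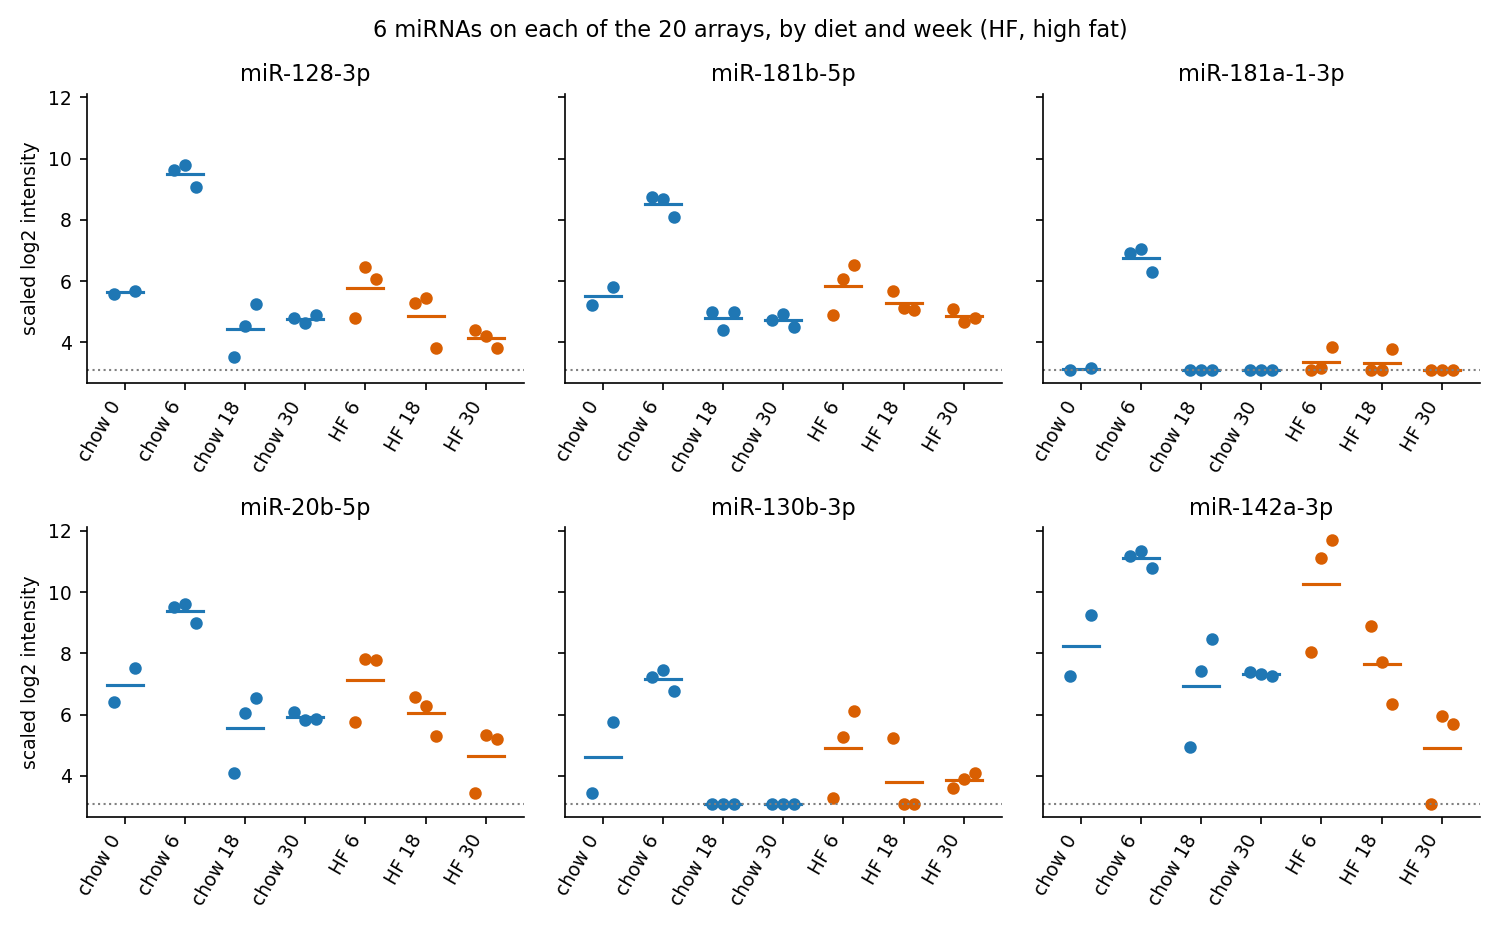
Scaled log2 intensity of 6 miRNAs on each of the 20 arrays (points) with the group mean (line), for chow (blue) and high fat (orange, HF) at weeks 0, 6, 18 and 30; the dotted line is the floor of 3.09. In all 6 panels the 3 chow week 6 points lie above all chow week 18 points, and for miR-142a-3p 2 of the high fat week 6 points lie in the range of chow week 6 or above it.

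Of 14 tested members of the miR-17 cluster and its paralogs, 11 were lower, the other 3 were negative without passing, and the median was -2.05. miR-20b-5p, of the X-linked paralog cluster, read 9.51, 9.63 and 8.98 at week 6 against 4.11, 6.05 and 6.55 at week 18. The groups did not overlap and replicate 1 was again lowest. Its difference was -3.80 (SE 0.68, adjusted p = 0.00166). miR-20a-5p differed by -3.03 (SE 0.77), miR-19a-3p by -3.20 (SE 0.63) and miR-18a-5p by -2.84 (SE 0.42, adjusted p = 3.59e-04). miR-363-3p, at chrX:50094923-50094940 in mm9, lay below that limit on every week 18 array and was at least 2.11-fold lower (adjusted p = 6.96e-05).

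The third cluster, Mir106b, Mir93 and Mir25 inside the replication helicase gene Mcm7, had all 3 members lower and detected on all 6 arrays. miR-93-5p stood at 8.59, 8.68 and 8.26 at week 6 and at 6.86, 6.99 and 7.0 at week 18. Its week 18 values were close together, replicate 1 included, and the difference was -1.56 (SE 0.43, adjusted p = 0.0179). miR-25-3p differed by -2.11 (SE 0.46) and miR-106b-5p by -2.0 (SE 0.56). By seed, all 5 tested miRNAs with AAAGUGC were lower, as were both with AAGGUGC and both with GUGCAAA, and 2 of 3 with AUUGCAC, where miR-92a-3p did not pass (-1.90, adjusted p = 0.0776). By cluster, 5 of 8 mature miRNAs of the chromosome 14 cluster passed and 4 of 5 of the X-linked one. Both counts include miR-19b-3p and miR-92a-3p, which have the same sequence in either cluster, and the array cannot tell these copies apart. Probes of miR-17-5p also match a position on chromosome X. Without week 18 replicate 1, 7 of the 14 list members passed, and miR-20a-5p (-2.15, adjusted p = 0.0774) and miR-93-5p (-1.51, adjusted p = 0.0565) did not.

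The miR-130 and miR-301 family was mixed. miR-130b-3p, at chr16:17124209-17124225 in mm9, read 7.24, 7.47 and 6.77 at week 6 and lay at the floor on all 3 week 18 arrays. It was at least 7.51-fold lower (adjusted p = 0.00116). miR-301a-3p, with the same seed, differed by -1.81 (adjusted p = 0.0566). miR-130a-3p, again with that seed, stood at 8.20, 8.45 and 8.04 against 7.48, 8.40 and 9.17. Its groups overlapped, with a difference of 0.12 (SE 0.50, adjusted p = 0.901).

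Both arms of miR-142a were lower. miR-142a-3p, at chr11:87756904-87756925 in mm9, read 11.17, 11.35 and 10.79 at week 6 and 4.95, 7.43 and 8.48 at week 18. The week 18 arrays spread widely, with an SD of 1.81 against 0.28 at week 6. The difference was -4.15 (SE 1.02, adjusted p = 0.00952), and without week 18 replicate 1 it was -3.15 and did not pass (adjusted p = 0.0597). miR-142a-5p differed by -3.86 (SE 0.93, adjusted p = 0.00867), and by -2.98 without that array (adjusted p = 0.0565).

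These were the 2 of 4 tested myeloid miRNAs that passed. The other 2 were miR-223-3p of granulocytes and macrophages, at 7.93, 8.14 and 7.70 against 6.87, 7.56 and 7.70 (-0.54, adjusted p = 0.560), and miR-511-3p (0.04, adjusted p = 0.963). The summed linear level of the myeloid list was 2323 to 3428 at week 6 and 152 to 675 at week 18, and without week 18 replicate 1 none of the list passed. That sum was mostly miR-142a, whose arms made up 90.6% to 91.4% of the level of the 4 tested members at week 6. The other 2 members summed to 217 to 299 at week 6 and 125 to 228 at week 18. Of 6 tested lymphocyte miRNAs, miR-181a-5p and miR-181b-5p passed, as above. They made up 66.3% to 68.7% of the summed level of the 6 at week 6, and the other 4 summed to 493 to 717 at week 6 and 223 to 662 at week 18. miR-150-5p, abundant in mature lymphocytes, stood at 8.24, 8.30 and 7.75 against 7.82, 6.70 and 7.21 (-0.85, adjusted p = 0.649), so that its groups overlapped. miR-155-5p, made by activated lymphocytes and macrophages, did not pass (-1.68, adjusted p = 0.264), nor did miR-139-5p (0.80, adjusted p = 0.384). In bulk tissue, fewer cells of a type and less of a miRNA per cell cannot be told apart.

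The largest list was that of the miR-297, miR-466, miR-467 and miR-669 families, taken by name. Many of their genes lie inside the chromatin gene Sfmbt2 on chromosome 2, but not all do. Of 42 tested members 15 were lower, with a median of -0.89 over the list. Among 5p arms 14 of 17 were lower, with a median of -2.92, and among 3p arms 0 of 19, with a median of -0.24. The 5p arms also started higher, with a median level of 7.99 at week 6 against 5.04 for the 3p arms and a floor of 3.09, so the 3p arms could differ by less. Over all tested miRNAs, 20.8% of 274 5p arms and 15.3% of 222 3p arms were lower. In miR-669b, for example, the 5p arm differed by -3.05 (adjusted p = 0.0324) and the 3p arm by -0.12 (adjusted p = 0.913), and in miR-466h the 5p arm differed by -3.18 and the 3p arm by 0.33 (adjusted p = 0.843). The difference between the arms was not tested, and the arm split was noticed after the values were seen.

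miR-466j, whose gene RefSeq places on chromosome 10 and so outside Sfmbt2, is an example of the array values in these families. It stood at 9.10, 8.51 and 8.55 at week 6, and at the floor, 7.17 and 6.31 on week 18 replicates 1, 2 and 3. Replicates 2 and 3 lay below week 6 by less than replicate 1 did. The difference was -3.20 (SE 1.02, adjusted p = 0.0398), and -1.98 without replicate 1 (adjusted p = 0.263). miR-466h-5p, miR-669k-5p, miR-669o-5p, miR-466c-5p and miR-669f-5p were likewise at the floor on replicate 1, at 5.91 to 7.43 on replicate 2 and at 4.90 to 6.67 on replicate 3. Without replicate 1 the list had 4 members that passed, all of them 5p arms, namely miR-466p-5p, miR-466a-5p, miR-467e-5p and miR-297c-5p, and the medians of the arms were -1.95 and -0.09. The first 2 were at 4.54 to 5.84 at week 6 and at or near the floor on all 3 week 18 arrays, with differences of -2.32 (SE 0.33) and -1.95 (SE 0.30). Both were detected on 2 of the 3 week 18 arrays, and the size of their differences depends on the floor.

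**Figure D3:**
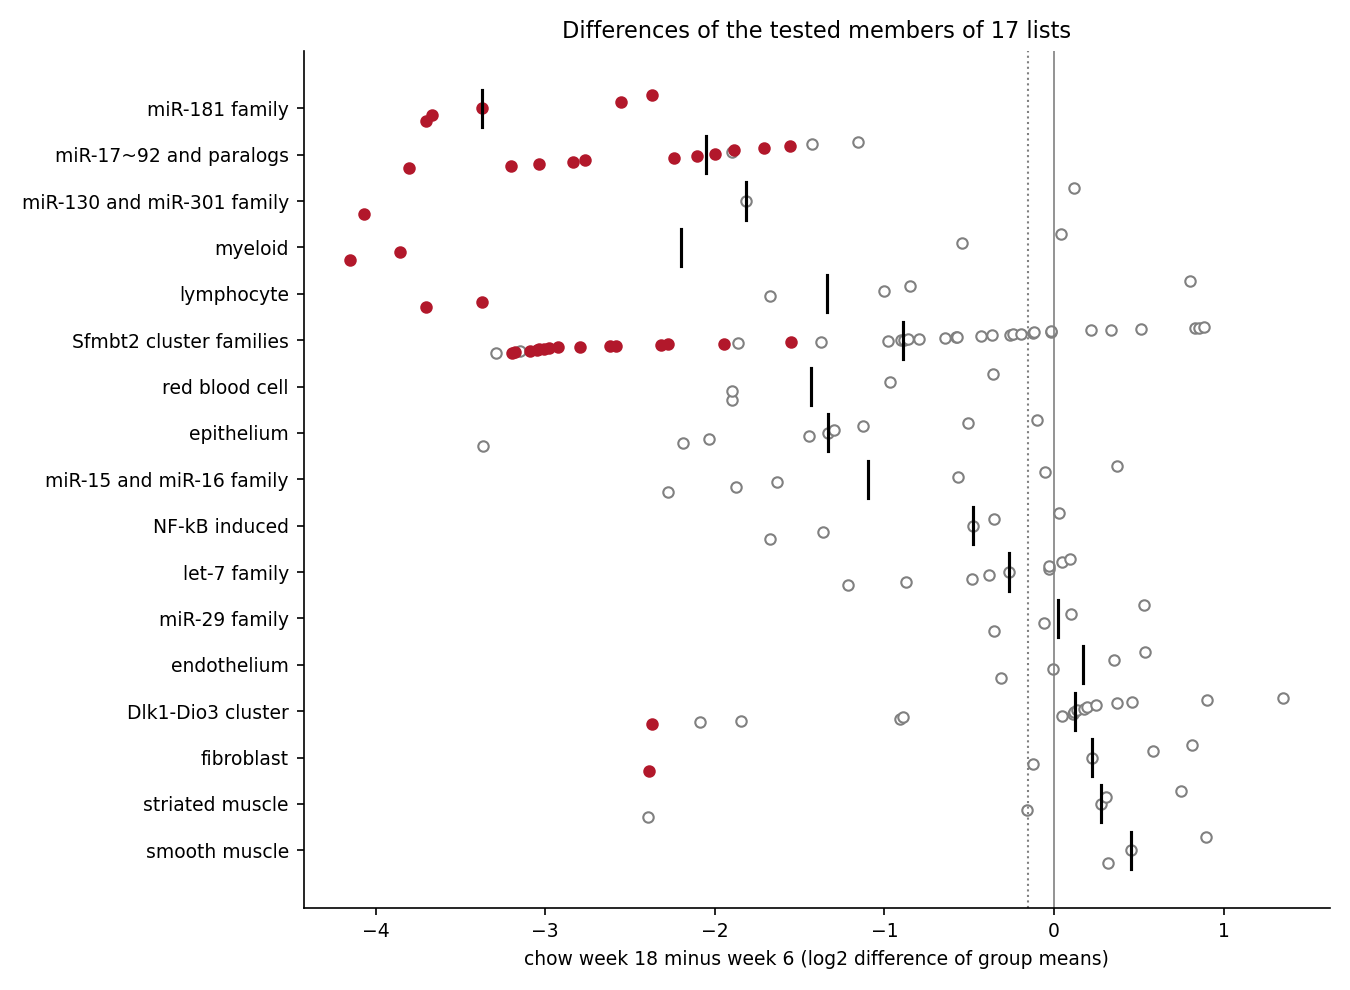
Log2 difference, chow week 18 minus week 6, of each tested member of 17 lists (filled red, past adjusted p of 0.05; open, not past), with the list median (black bar), 0 (solid line) and the median of all 609 tested miRNAs, -0.16 (dotted line). The miR-181 and miR-17 cluster lists lie wholly below 0, the Sfmbt2 families spread from -3.29 to 0.89, and the smooth muscle list lies above 0 with no member past the threshold.

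For most lower miRNAs whose opposite arm was tested, that arm did not pass, and the difference between arms was not tested in any. Hairpins with neither arm lower were not counted. Over all 609 tested miRNAs 16.4% passed, so that an opposite arm that does not pass is the usual case. Of 91 lower miRNAs with an arm in their name, 28 had an opposite arm among the tested miRNAs, which passed as well in 4 (both arms of miR-142a and of miR-181a) and did not in 24. Arms called differently could still have like values, as in miR-6975 (5p -1.86, adjusted p = 0.0301; 3p -1.81, adjusted p = 0.136). The miR-15 and miR-16 family, which restrains the cell cycle, had 0 of 6 main arms lower, with miR-16-5p at -1.88 (adjusted p = 0.0823), miR-15b-5p at -2.28 (adjusted p = 0.103) and miR-15a-5p at -1.63 (adjusted p = 0.166). The opposite arms miR-15a-3p (-2.61), miR-16-1-3p (-2.75), miR-16-2-3p (-2.46) and miR-195a-3p (-2.82) all passed. miR-195a-5p itself differed by -0.05. These 4 were named after their values were seen. On week 18 replicate 1 all 4 lay at the floor, and on replicates 2 and 3 they lay between 3.09 and 5.32, against 5.53 to 7.35 at week 6. In fibroblast-linked miR-214, the 5p arm differed by -2.39 (SE 0.51, adjusted p = 0.00404) and the 3p arm by 0.81 (adjusted p = 0.449). It was the member of that list of 5 that passed.

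Among miRNAs of the aortic wall, 0 of 3 tested smooth muscle miRNAs and 0 of 4 endothelial ones passed, beside 16.4% of all tested miRNAs. miR-145a-5p stood at 8.24, 8.17 and 8.25 at week 6 and at 9.73, 8.45 and 9.16 at week 18. Every week 18 array lay above week 6, the difference was 0.90 (SE 0.34) and the adjusted p was 0.0842. Settings in which it passed as higher included quantile normalization (1.29, adjusted p = 0.0303) and the test of all 1881 miRNAs (adjusted p = 0.0451). Without week 18 replicate 2, 1 of the 3 smooth muscle miRNAs passed as higher. miR-143-3p, of the same smooth muscle transcript, differed by 0.32 (adjusted p = 0.721). For endothelial miR-126a-3p the values were 11.34, 11.51 and 10.85 against 9.41, 11.93 and 11.42. The groups overlapped, with replicate 1 of week 18 lowest. Of the miR-29 family, which restrains collagen genes, 0 of 4 passed, with a median of 0.02, and of 5 NF-kB induced miRNAs 0 passed, with miR-21a-5p at -0.48 (adjusted p = 0.713).

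No miRNA passed as higher in the reported setting. The smallest adjusted p among positive differences was 0.0517, for miR-8101, at 7.69, 7.50 and 7.53 against 9.17, 8.47 and 8.52. Its groups did not overlap, and the difference was 1.15 (SE 0.39). Settings in which miR-8101 passed as higher included quantile normalization (1.54, adjusted p = 0.0393) and the replicate number as a block (adjusted p = 0.0307). The diet from the description's position was another (1.27, adjusted p = 0.0422). miR-129-2-3p differed by 2.17 (adjusted p = 0.0627) with values of 3.87, 3.69 and 3.42 against 7.21, 6.76 and 3.54, so that replicate 3 lay within the week 6 range, and it passed without that array (3.32, adjusted p = 0.00313). miR-125a-3p differed by 0.99 (adjusted p = 0.105).

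Markers of tissues other than the aortic wall moved between single arrays, and so did those of the wall. Of the epithelial list 0 of 9 passed, with a median of -1.33, and its defining member miR-205-5p stood at 7.69, 7.72 and 10.26 at week 6 and at the floor, at the floor and at 9.39 at week 18. The summed level of that list was 681 to 2007 at week 6 and 26.7, 146 and 2545 on week 18 replicates 1, 2 and 3. Striated muscle miRNAs (0 of 5, median 0.28) summed to 1989 to 7423 and to 1502, 2314 and 9886. Red blood cell miRNAs (0 of 4, median -1.43) summed to 5802 to 8855 and to 656, 5160 and 3555, with miR-451a at 12.89, 13.04 and 12.42 against 8.70, 12.26 and 11.70. Brown fat miRNAs (0 of 6, median 0.45) summed to 2420 to 3102 and to 7122, 4312 and 2012. Of the wall itself, endothelial miRNAs summed to 1949 to 3028 at week 6 and to 823, 4061 and 2892 on week 18 replicates 1, 2 and 3. Smooth muscle miRNAs summed to 1091 to 1454 and to 1550, 1664 and 2652. Week 18 replicate 1 thus had the lowest epithelial, striated muscle, red cell and endothelial sums and the highest brown fat sum of the 6 arrays. The part of these tissues in the differences above was not tested.

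The remaining lists had few or no members lower, beside 16.4% of all tested miRNAs. Here and in the lists above, a count of 0 among so few members does not set a list apart. The Dlk1-Dio3 cluster, an imprinted group of miRNAs, had 1 of 16 lower, miR-539-5p (-2.37, SE 0.54, adjusted p = 0.00672), with a list median of 0.13. The let-7 family had 0 of 9, with a median of -0.27 and all 9 detected on all 6 arrays. The lists of liver (0 of 3, median -1.02), neuron (0 of 3, median -0.33), p53-linked miR-34 (0 of 3, median -0.35), X-linked miR-322 to miR-542 (0 of 3, median -0.11) and GC-rich or rRNA-derived entries (0 of 7, median 0.42) had none.

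The same step was then examined on the high fat diet, where 0 miRNAs were lower and 0 higher (0% each, limma, 609 tested). The high fat arrays differed in quality too. Week 18 replicate 3 had a negative control SD of 22.3, against 2.10 to 2.53 on all other arrays, and detected 328 miRNAs. Week 6 replicate 3 detected 345 and had 160 tested miRNAs at the floor. The other high fat arrays of these weeks detected 556 to 654. What these arrays did to the counts was not tested. Both steps run from slide 1 to later slides, slide 2 apart from high fat week 18 replicate 3 on slide 3. The 100 miRNAs lower on chow had a median difference of -0.55 on high fat, against a median of -0.12 over all tested miRNAs. Of the 100, 83 were negative on high fat and 9 had an unadjusted p under 0.05, and these counts were not taken over all tested miRNAs. Over all 609 the chow and high fat differences had a Pearson correlation of 0.62 and a Spearman correlation of 0.63. miR-142a-5p differed by -3.04 and miR-142a-3p by -2.63 on high fat, beside -3.86 and -4.15 on chow.

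The difference between the steps itself was tested, and 7 miRNAs passed, all lower in the chow step and all among the 100 (1.15% of 609). At an unadjusted p under 0.05 there were 57, all lower in the chow step. For miR-128-3p the difference between the steps was -4.13 (SE 0.74, adjusted p = 0.00522). Were the description's slide position right about the diet, it would be -2.96 and not past the threshold (adjusted p = 0.0653). On high fat it read 4.79, 6.48 and 6.09 at week 6 and 5.28, 5.46 and 3.82 at week 18, so that those groups overlapped and all 6 values lay below the chow week 6 arrays. Of the miR-181 family, miR-181b-5p (-3.16, SE 0.58, adjusted p = 0.00522), miR-181d-5p (-2.41, SE 0.56, adjusted p = 0.0379) and miR-181a-1-3p (adjusted p = 3.69e-04) passed. miR-181d-5p passed in only 3 of the 12 fits that left out 1 array of the 4 groups, with adjusted p up to 0.132, and did not pass by the position in the description (adjusted p = 0.555). miR-181a-5p (-2.42, SE 1.00, adjusted p = 0.460) and miR-181c-5p (-1.65, SE 0.70, adjusted p = 0.466) did not pass. The other 3 that passed were miR-363-3p, miR-466p-5p and miR-466a-5p, the last in 8 of those 12 fits, with adjusted p up to 0.106.

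The sizes for miR-181a-1-3p, miR-363-3p, miR-466p-5p and miR-466a-5p were set in part by the floor, since at week 18 on chow they lay at or near it. With the floor lower by 1 the difference between the steps went from -3.63 to -4.43 for miR-181a-1-3p, from -2.24 to -2.83 for miR-363-3p, from -2.54 to -3.19 for miR-466p-5p and from -1.99 to -3.11 for miR-466a-5p. At that floor miR-466p-5p (adjusted p = 0.0838) and miR-181d-5p (adjusted p = 0.0873) did not pass. miR-363-3p lay at the floor on all 6 high fat arrays as well, so that its difference between the steps repeats its chow step and says nothing of its course on high fat. miR-466p-5p and miR-466a-5p also lay at the floor on high fat, except on week 18 replicate 1. Without that array their differences between the steps were -2.32 and -1.95, equal to their chow steps. They too say little of a course on high fat. For miR-142a-3p the difference between the steps was -1.52 (SE 1.44, adjusted p = 0.819), and for miR-20b-5p it was -2.73 (SE 0.97, adjusted p = 0.339). The count of 7 fell to 1, miR-181a-1-3p, with the nearly identical week 6 arrays averaged, with quantile normalization or without scaling, and to 0 with normexp background correction or the percentile taken over all miRNAs.

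**Figure D4:**
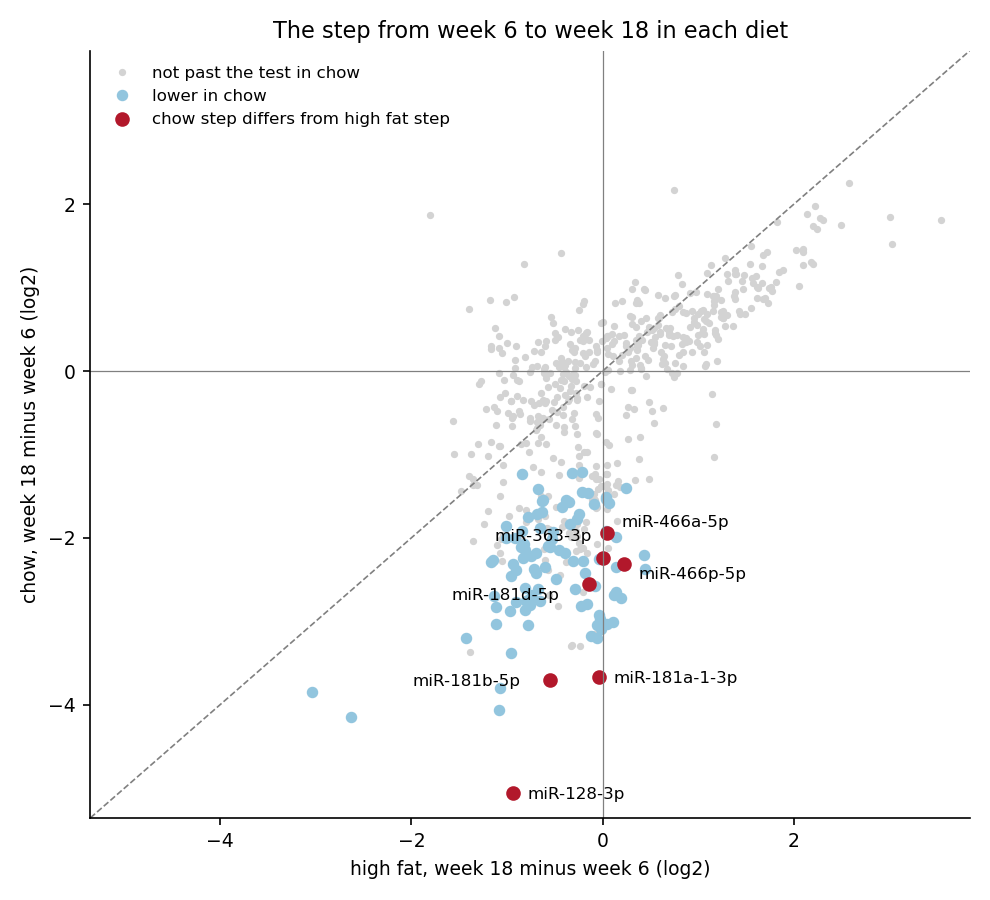
Log2 difference from week 6 to week 18 on chow (vertical) against that on high fat (horizontal) for each of 609 tested miRNAs; the dashed line marks equal steps. The 7 named miRNAs (red) lie far below the dashed line with high fat steps between -0.93 and 0.22, and miR-142a-3p and miR-142a-5p are the 2 blue points furthest to the left.

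Levels at the other chow weeks are given side by side without a test, since those steps share arrays with this one. miR-128-3p stood at 5.59 and 5.70 at week 0, on slide 1 like week 6, and at 4.78, 4.64 and 4.91 at week 30, on slide 2 like week 18. miR-181b-5p stood at 5.23 and 5.80 at week 0 and at 4.72, 4.93 and 4.5 at week 30. miR-142a-3p stood at 7.26 and 9.25 and at 7.41, 7.33 and 7.26. In all 3, week 6 was the highest of the chow weeks.

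This held widely among the 100. Their group means had medians of 3.74, 6.21, 3.76 and 4.47 at chow weeks 0, 6, 18 and 30, and every one of the 100 had a lower mean at week 0 and at week 30 than at week 6. In 99 of the 100 all 3 week 6 arrays lay above both week 0 arrays, as they did in 308 of 609 tested miRNAs (50.6%). In 95 they lay above the 3 week 30 arrays (31% of those tested), in 91 above the 3 high fat week 18 arrays (27.9%) and in 54 above the 3 high fat week 6 arrays (13.5%). In 53 of the 100 they lay above all other 17 arrays of the series, against 64 of all 609 (10.5%). The 100 were chosen by the week 6 arrays, so that these counts describe them and test nothing. From week 18 to week 30 the median difference of the means of the 100 was 0.42.

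**Figure D5:**
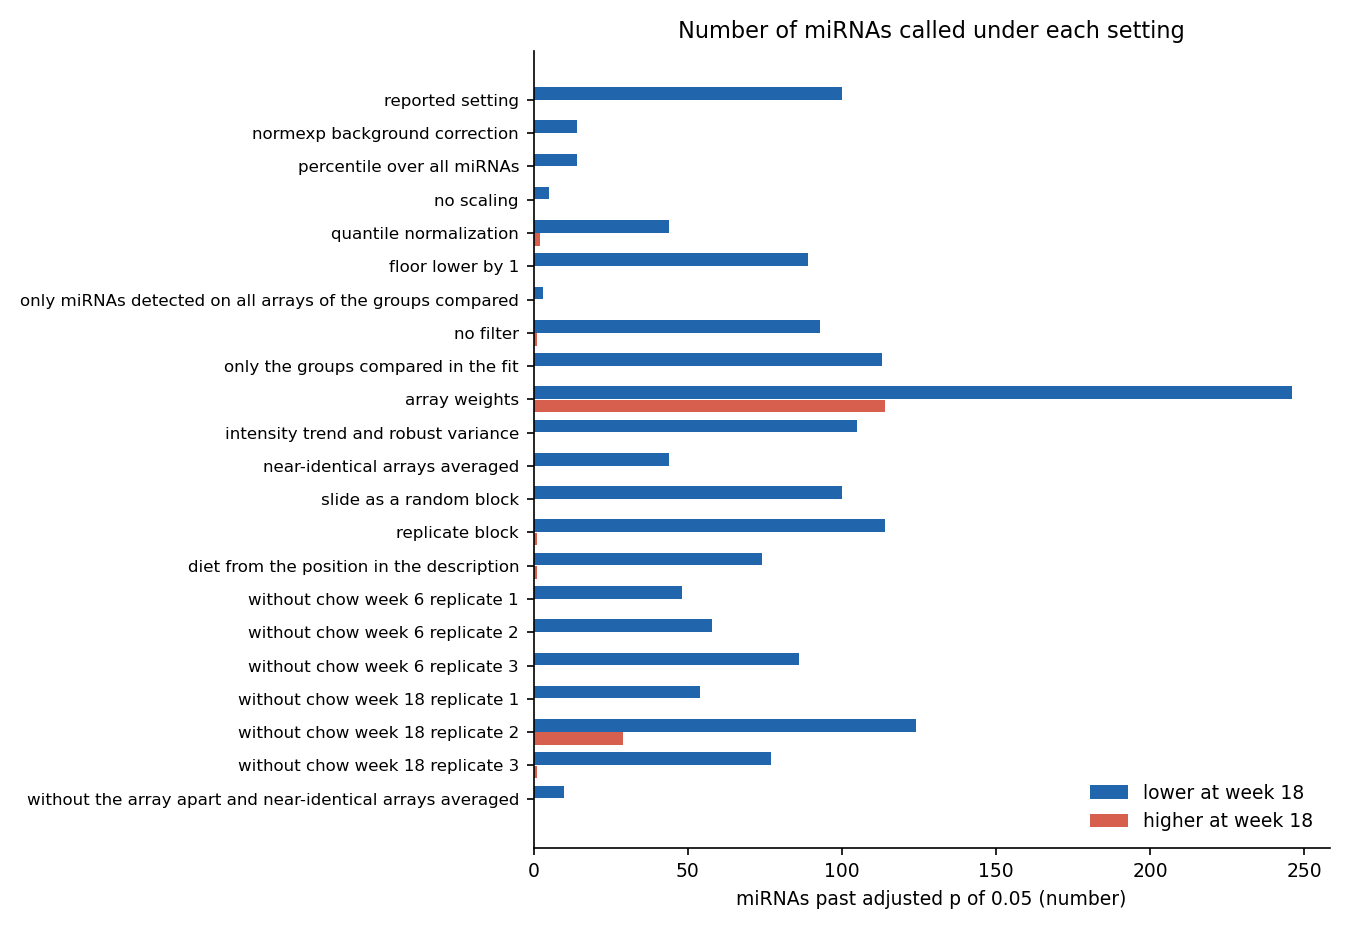
Number of miRNAs past adjusted p of 0.05 in the chow comparison, lower (blue) and higher (red) at week 18, under the reported setting and 21 others. The number lower runs from 3, of the 248 miRNAs detected on all 6 arrays, to 246 with array weights, where 114 are higher as well.

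Across settings, miR-128-3p, miR-181a-5p and miR-181b-5p passed in 20 of 21 alternatives. In 1 alternative only the 248 miRNAs detected on all 6 arrays were tested, which hold 7 of the 100. miR-128-3p and miR-181b-5p were not tested there and passed in the other 20. Of the 100, 46 passed whichever of the 6 arrays was left out. None (0) passed in every alternative, which only those 7 could have done. When the array that stood apart was left out and the nearly identical pair averaged, the 10 that passed were miR-128-3p, miR-130b-3p, miR-181a-1-3p, miR-181a-5p, miR-181b-5p, miR-181d-5p, miR-18a-5p, miR-363-3p, miR-466a-5p and miR-466p-5p, with differences of -1.82 to -4.5. By probe, of the 100 miRNAs 96 had a negative difference for every probe and 78 passed with every probe on its own. The value of a miRNA is the mean of these same probes, and the 100 were chosen on that value. The probe counts therefore describe the 100 and are no separate test of them. They were not taken over all tested miRNAs.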

How the data were processed

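Total RNA was hybridised to Agilent mouse miRNA arrays in 1 colour. The deposited intensity values were background-subtracted and spatially detrended, and not scaled between arrays, per the file headers. The submitters' processing notes name Agilent Feature Extraction 11.5.1 as the software. Each array holds 56430 mouse spots from 4415 probes for 1881 mature miRNAs, and probe positions refer to mm9. The deposited value table repeats the intensity of the scanner files in all 20 columns.

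From these, control and outlier spots were left out, 0 spots were saturated, and means were taken over the spots of a probe and then over the probes of a miRNA. Detection required that a share of 0.5 or more of 1 probe's usable spots be well above background. Arrays were scaled by the 75th percentile of the 192 miRNAs detected throughout, the floor (3.09, the median over arrays of the 1st percentile of detected signals) was set, and log2 was taken. The fit covered 609 miRNAs, those that all arrays of some group detected, with limma 3.58.1 (R 4.3.3; lmFit and eBayes, all 20 arrays, 7 groups, 13 residual degrees of freedom, 2-sided, Benjamini-Hochberg at 0.05). The fit was tested on simulated data with known changes. Those data had no floor and no detection step, so that test does not cover values at the floor. The number of arrays limits the precision, and values at the floor add no spread.

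The rule for named miRNAs took the 20 largest lower differences without overlap, the 10 smallest p-values in a direction with few calls, up to 4 members a list by smallest p, the 10 smallest p-values for the difference between the diets, up to 4 members of each seed shared by 3 or more lower miRNAs, and the 5 lower miRNAs each with the smallest SE and the widest spread. Outside it, miR-106b-5p, miR-25-3p, miR-19b-3p, miR-18b-5p, miR-92a-3p, miR-338-5p, miR-500-3p, miR-150-5p, both arms of miR-6975 and the opposite arms of miR-15, miR-16, miR-195a, miR-466h and miR-669b were chosen after their values were seen. So were let-7j, let-7k and let-7g-3p. RefSeq held a mature sequence for 496 of the 609 and 76 of the 100. Members and lists were chosen with earlier results of these data known. Same-numbered arrays of the 2 weeks had correlations of their deviations of -0.40, 0.47 and 0.08. Differently numbered ones reached 0.65 and -0.64. Deviations from a mean of 3 arrays depend on each other, so these values cannot decide whether replicate numbers pair the samples. The reported setting used no pairing.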

Additional observations from a re-analysis of the deposited data

Results flagged for a closer look

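In 7 miRNAs the step from week 6 to week 18 differed between chow and high fat by the test of that difference (limma, adjusted over 609 miRNAs). The chow step minus the high fat step was -4.13 for miR-128-3p, -3.63 for miR-181a-1-3p, -3.16 for miR-181b-5p and -2.41 for miR-181d-5p. It was -2.54 for miR-466p-5p, -2.24 for miR-363-3p and -1.99 for miR-466a-5p. On high fat the week 18 and week 6 values of miR-363-3p all lay at the floor, so that its difference between the steps only repeats its chow step. Those of miR-466p-5p and miR-466a-5p lay there except on high fat week 18 replicate 1, so that their differences nearly repeat their chow steps. The sizes for miR-181a-1-3p, miR-466p-5p and miR-466a-5p also depend on the floor. When each of 12 arrays was left out in turn, miR-181d-5p lost its call in 9 fits and miR-466a-5p in 4, and the other 5 kept theirs. By the position in the description, miR-128-3p (adjusted p = 0.0653) and miR-181d-5p (adjusted p = 0.555) did not pass. No group of the comparison had 4 or more arrays, so single arrays were not tested as outliers.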

How the results depend on the processing

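Of 100 lower and 0 higher miRNAs on chow, normexp background correction left 14 lower, the percentile over all miRNAs 14, no scaling 5, quantile normalization 44 with 2 higher, averaging the nearly identical arrays 44, and this together with leaving out the array that stood apart 10. Only 3 were lower among the 248 detected on all 6 arrays, where fewer were tested. Array weights gave 246 lower and 114 higher, testing all 1881 miRNAs gave 1 higher, single probes gave 3 higher, and the diet from the description's position gave 74 lower and 1 higher (miR-8101). Leaving out 1 array gave 48 to 124 lower and 0 to 29 higher. With the replicate number as a block, 114 were lower and 1 higher, and 6 miRNAs differed between the diets. With the slide as a random block 100 were lower. For the difference between the diets, the count of 7 became 0 with normexp, the percentile over all or the detection filter, 1 without scaling, with quantile normalization, with only the compared groups, with averaging or with averaging and without the array apart, 86 with array weights and 15 for single probes. With normexp, the value for miR-466a-5p turned to 0.026, and the cause was not tested. The median difference over all tested miRNAs was 0.41 with the percentile over all miRNAs, 0.22 with quantile normalization and -0.04 without scaling, against -0.16. The value table gave no separate result, as it holds the same intensities. Signal over background limits the comparison, since 93 of the 100 were not detected on at least 1 week 18 array.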
